A study of Mus musculus with 4 samples.

Results

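Roquin-1 and roquin-2 (Rc3h1 and Rc3h2), Regnase-1 (Zc3h12a) and the 3 ZFP36 proteins (Zfp36, Zfp36l1 and Zfp36l2) are RNA-binding proteins that shorten the life of messenger RNAs. The 6 genes were taken by symbol from a table of 14934 genes, and all 6 passed the filter on low counts, which left 11563 genes for testing. Rc3h1 was chosen from its p-value in these data, where it stood 7th of the tested genes. Its paralogue and the partner proteins were added by function. The contrast of Rc3h1 between the groups is therefore a description here, given without a test. Libraries came from CD8 T cells that were sorted by flow cytometry from mouse hepatocellular carcinoma, a tumour of liver cells. The sort separated cells with JAML on their surface (JAML-positive, 2 libraries, A and B) from cells without it (JAML-negative, 2 libraries, A and B). JAML is the junctional adhesion molecule-like protein, an immunoglobulin superfamily receptor. All mice were labelled wild type, no treatment is named, and the sources used here give no age, tumour model or number of animals. Since nothing says whether A and B came from separate animals, a p-value here reflects the spread of these 4 libraries alone, and that spread may be technical.

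Messenger RNAs of cytokines and activation receptors carry short signals in their 3′ untranslated regions (3′ UTRs) that limit how long they last. Roquins bind stem-loops there and recruit the CCR4-NOT complex, which removes the poly(A) tail. Regnase-1 cuts stem-loop RNAs with its own nuclease domain, and in T cells the protease MALT1 cleaves both Regnase-1 and the roquins after antigen receptor stimulation. ZFP36 proteins (ZFP36 is also called tristetraprolin) hold a pair of CCCH zinc fingers that bind the AU-rich heptamer UAUUUAU, and they too recruit CCR4-NOT. Mutation of roquin-1 in mice causes autoimmunity with excess helper T cells, and loss of Regnase-1 strengthens the antitumour activity of mouse CD8 T cells.

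The AU-rich heptamer also occurs in the 3′ UTRs of most of these genes themselves, and those sites are shown because they are the letters that ZFP36 proteins read. The search took TATTTAT on the transcript strand, overlapping matches counted, in the 3′ UTR of the longest coding transcript of GENCODE M21 (GRCm38). Zfp36, Zfp36l1, Zfp36l2 and Rc3h2 each held 3 matches, Rc3h1 held 2 and Zc3h12a 0. In each of the 5 genes with matches, 1 lay inside the longer form TTATTTATT. That site is printed for each gene with the heptamer in capitals, 5′ to 3′.
Rc3h1, chr1:160970043-160970072, plus strand: actttactcatTATTTATtgagatgaggag
Rc3h2, chr2:37373286-37373315, minus strand: caaagacatttTATTTATtttactctgtaa
Zfp36, chr7:28376950-28376979, minus strand: tatgacgacttTATTTATtgtattaagatt
Zfp36l1, chr12:80108166-80108195, minus strand: aactgttggatTATTTATtttagaaattct
Zfp36l2, chr17:84184913-84184942, minus strand: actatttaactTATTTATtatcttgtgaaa
Of 10590 tested genes with such a 3′ UTR, 30.5% held at least 1 heptamer. Zfp36 has a short 3′ UTR of 774 nucleotides (nt), and 3 or more matches were found in 0.875% of the 1371 genes with a 3′ UTR of like length (0.8 to 1.25 times its own). The same share was 3.78% for Zfp36l1 (1835 nt), 3.69% for Zfp36l2 (1822 nt) and 14.9% for Rc3h2 (5331 nt). For Rc3h1, whose 3′ UTR has 7181 nt, 45.7% of like genes held 2 or more. A match describes the letters and is no evidence of binding.

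Libraries held 27530187 to 30569728 counts, and 12069 to 12527 genes had at least 1 count. Levels are CPM, the counts of a gene divided by its library's total after scaling with edgeR's TMM factors. Jaml itself lay at 142 ± 6.50 CPM in JAML-positive and 123 ± 9.87 CPM in JAML-negative cells (SD, n = 2), a log2 fold change of 0.20 (SE 0.27, edgeR adjusted p = 0.881), so the group names rest on the labels. Cd8a was at 1046 ± 5.39 CPM in JAML-positive and 1066 ± 63.1 CPM in JAML-negative cells, and the 7 T cell markers in the table summed to 3408 to 3972 CPM in JAML-positive and 3490 to 3533 CPM in JAML-negative libraries. JAML-positive replicate A stood apart, with 11.7% of its counts in ribosomal protein genes against 7.23% to 8.04% in the other libraries. Markers of other cells differed between the groups. The 14 dendritic cell and major histocompatibility complex (MHC) class II markers summed to 519 and 708 CPM in JAML-positive and 284 and 288 CPM in JAML-negative libraries, with 11 of 12 tested higher and 1, Itgax, lower. The 9 B and plasma cell markers in the table summed to 85.1 and 132 CPM in JAML-positive and 19.2 and 22.5 CPM in JAML-negative libraries. Among the 5 tested markers, 4 were higher and 1, Fcer2a, lower on the JAML-positive side. By edgeR, 3 of the higher markers had p under 0.05 before adjustment, or 60.0% of those tested, beside 4.32% of all genes. These included Ms4a1, with 11.5 and 3.25 CPM in the JAML-positive pair and 0.035 and 0 CPM in the JAML-negative pair. Jchain was at 98.3 and 50.9 CPM in JAML-positive and 4.56 and 0.326 CPM in JAML-negative libraries, and Mzb1 at 7.09 and 10.97 CPM and at 0 in both. Cd79b overlapped between the groups, and Fcer2a was at 0 and 0.383 CPM in JAML-positive and 8.76 and 4.53 CPM in JAML-negative libraries. Sdc1 had counts in JAML-positive replicate A only. Of the other markers, 2 erythroid genes summed to 12.6 and 49.4 CPM in JAML-positive and 0 and 0.036 CPM in JAML-negative libraries, while the sums of 10 macrophage and 5 hepatocyte genes overlapped. Most of the macrophage sum came from Ly6c2, whereas Mpeg1 of that list was at 119 and 89.4 CPM in JAML-positive and 7.49 and 13.8 CPM in JAML-negative libraries. Of the neutrophil list, the 2 genes in the table lay below 0.6 CPM everywhere. The part of such cells in the results that follow was not tested.

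In JAML-positive cells, values were lower for 5 of the 6 decay factors, against 49.3% of all tested genes, and slightly higher for 1, Rc3h2, against 50.7%. None passed edgeR's quasi-likelihood test after adjustment over all genes, where 0 of 11563 genes (0.0%) passed. Of the 5 factors other than Rc3h1, 3 were lower and 0 higher at an unadjusted p under 0.05, where 3.34% of all tested genes were lower (386) and 4.32% higher (499). For 5 of the 6 both JAML-positive libraries lay below both JAML-negative ones, which held for 18.2% of all tested genes (20.3% lay apart the other way). DESeq2, run as an alternative, called 2 of the 5 factors other than Rc3h1 lower (Zc3h12a and Zfp36l2) and 0 higher. Of all genes it called 3.02% lower and 4.64% higher. The median log2 fold change was -0.52 over the 6 genes and 0.01 over all tested genes. Because the group was assembled with the Rc3h1 result in view, these counts describe the genes and are not a test of them. In bulk libraries, fewer cells that express a gene and less of its RNA per cell cannot be told apart.

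**Figure D1:**
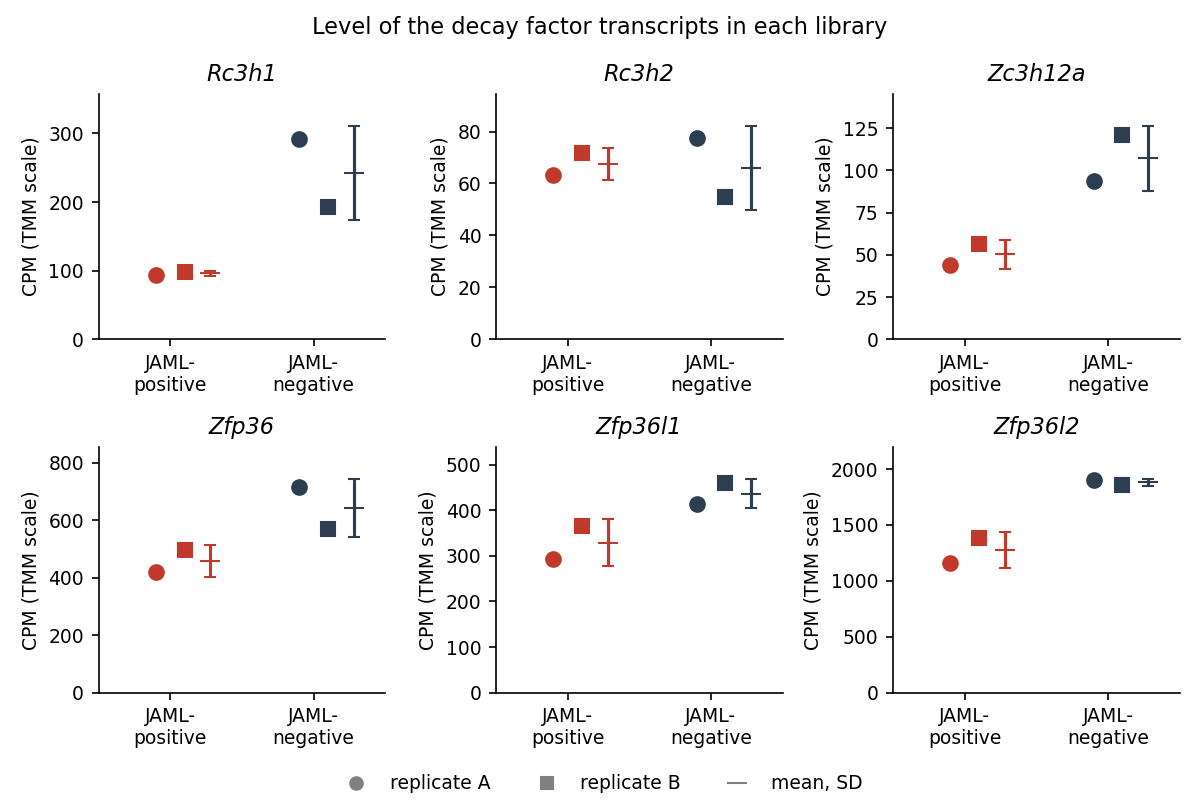
CPM of each decay factor transcript in the 4 libraries, JAML-positive on the left of each panel and JAML-negative on the right, with circles for replicate A, squares for replicate B and a bar for the mean with its SD. Both JAML-positive libraries lie below both JAML-negative ones in every panel except that of Rc3h2, where the groups overlap.

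Roquin-1 and roquin-2 are paralogues with overlapping functions in T cells. Rc3h1 (Entrez 381305, chromosome 1, 160906411 to 160974976, GRCm38.p6) was at 93.8 and 98.4 CPM in JAML-positive replicates A and B, against 291 and 193 CPM in JAML-negative A and B. The groups stood clear of each other, although the JAML-negative libraries differed by more than the JAML-positive ones. On the log2 scale they differed by -1.33 (SE 0.28), which puts JAML-positive cells at 39.7% of the JAML-negative level. Without JAML-negative replicate A, the library with the highest level, it was -1.01, and without JAML-negative replicate B it was -1.59.

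Rc3h2 (Entrez 319817, chromosome 2, 37368861 to 37424370) was at 63.1 and 71.8 CPM in JAML-positive replicates A and B, while JAML-negative replicates A and B had 77.5 and 54.7 CPM. Both JAML-positive libraries lay between the JAML-negative ones. On the log2 scale the difference was 0.03 (SE 0.36, 95% interval -0.75 to 0.81, adjusted p = 0.989 by edgeR), and its sign turned when a library was left out (-0.19 to 0.30). That interval leaves room for a change of either sign, so an absence of change is not shown.

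Rc3h1 gave 59.8% (95% exact binomial interval 58.3% to 61.3%) and 57.8% (56.5% to 59.2%) of the pair's counts in JAML-positive A and B. In JAML-negative A and B it gave 79.0% (78.2% to 79.7%) and 78.0% (77.0% to 78.9%). The intervals cover counting error only, with each count taken as independent, which was not tested. Expressed as a ratio, there were 1.49 and 1.37 Rc3h1 counts for each Rc3h2 count in JAML-positive cells and 3.75 and 3.54 in JAML-negative cells. The ratio needs no scaling between libraries, and the groups did not overlap in it. The summed level of the pair was 157 and 170 CPM in JAML-positive and 369 and 248 CPM in JAML-negative libraries. With 2 libraries against 2, no exact permutation test could pass the 0.05 threshold, and none is given for a ratio that holds Rc3h1.

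**Figure D2:**
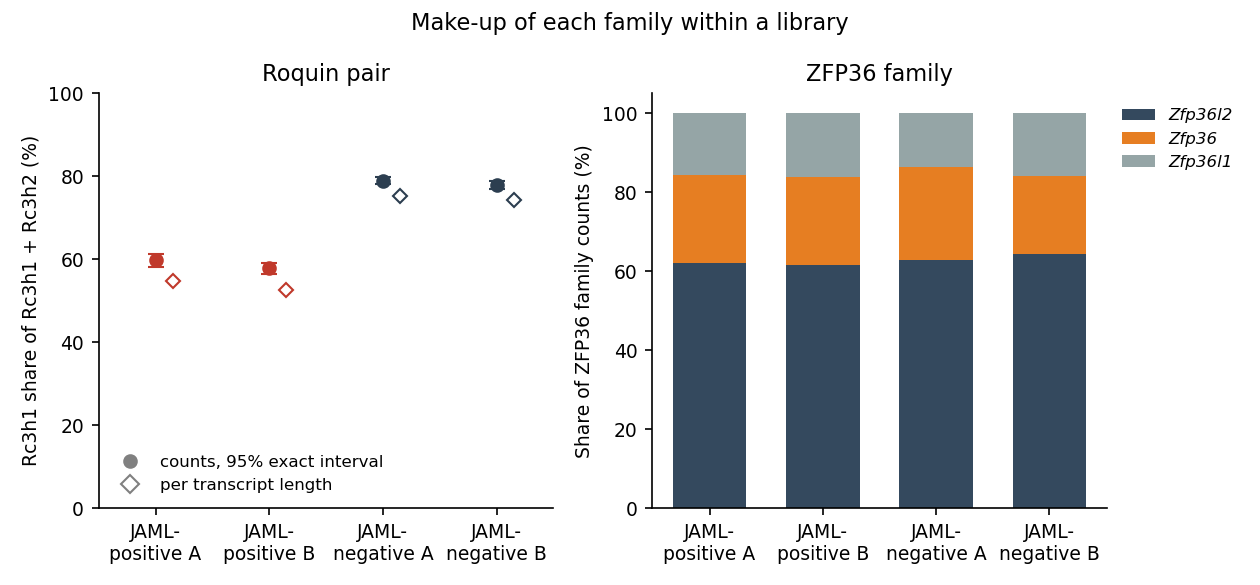
Left, share of the counts of the roquin pair that came from Rc3h1 in each library, with exact 95% intervals, and the same share per transcript length (diamonds). Right, stacked shares of Zfp36l2, Zfp36 and Zfp36l1 in the counts of their family. The roquin share is 57.8% to 59.8% in JAML-positive and 78.0% to 79.0% in JAML-negative libraries, while Zfp36l2 stays between 61.7% and 64.3%.

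Regnase-1 acts on many of the same stem-loops as the roquins. Zc3h12a (Entrez 230738, chromosome 4, 125118414 to 125127881) was at 44.0 and 56.5 CPM in JAML-positive replicates A and B, against 93.5 and 121 CPM in JAML-negative replicates A and B. The lowest JAML-negative library was still above the highest JAML-positive one. The difference on the log2 scale was -1.08 (SE 0.34, 95% interval -1.83 to -0.33, adjusted p = 0.609 by edgeR), or 47.2% of the JAML-negative level. Unlike the roquins, Zc3h12a was lower in JAML-negative replicate A than in replicate B.

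Of the 3 Regnase paralogues in the table, 2 were tested and 0 had an unadjusted p under 0.05. Zc3h12d, which encodes Regnase-4, was at 54.1 and 56.1 CPM in JAML-positive and 51.6 and 63.1 CPM in JAML-negative libraries, so its groups overlapped. On the log2 scale they differed by -0.06 (SE 0.38, adjusted p = 0.983 by edgeR). Zc3h12c was scarce, at 6.72 and 4.02 CPM in JAML-positive and 3.46 and 0.109 CPM in JAML-negative libraries. The log2 fold change of 1.54 came with an SE of 1.51 (adjusted p = 0.823 by edgeR). Zc3h12b had 220 counts in JAML-negative replicate A and 0 in each other library, and it was not tested.

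The ZFP36 family was the most abundant part of the group. Zfp36l2 (Entrez 12193, chromosome 17, 84183924 to 84187947) ranked 48th of the 11563 tested genes by mean CPM, Zfp36 252nd and Zfp36l1 425th. In mice Zfp36l1 and Zfp36l2 together restrain the cell cycle in developing lymphocytes. Zfp36l2 was at 1160.1 and 1388 CPM in JAML-positive replicates A and B, against 1903 and 1857 CPM in JAML-negative replicates A and B. The gap between the groups exceeded the spread in each. On the log2 scale it amounted to -0.56 (SE 0.19, 95% interval -0.97 to -0.15, adjusted p = 0.609 by edgeR).

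Zfp36 (Entrez 22695, chromosome 7, 28376784 to 28379228), an immediate early gene that is induced by receptor signals and by tissue handling, was at 419 and 498 CPM in JAML-positive and 715 and 571 CPM in JAML-negative replicates A and B. This is -0.48 on the log2 scale (SE 0.21, adjusted p = 0.609 by edgeR). Zfp36l1 (Entrez 12192, chromosome 12, 80107760 to 80113013) was at 292 and 365 CPM in JAML-positive and 414 and 459 CPM in JAML-negative replicates A and B. This is -0.41 on the log2 scale (SE 0.22, adjusted p = 0.617 by edgeR), and the 95% interval of -0.88 to 0.07 reaches past 0. Both genes had groups that did not overlap, by a smaller margin than Zfp36l2. Of the exonic bases of Zfp36l1, 55.9% overlap the opposite-strand gene Gm26669, which is not analysed here. For Zfp36 and Zfp36l2 such overlap was 3.6% and 2.97%, and the sources used here do not say whether counting used the strand.

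The family's make-up varied little. Of the family's counts, Zfp36l2 gave 62.0% and 61.7% in JAML-positive A and B, and 62.8% and 64.3% in JAML-negative A and B. Zfp36 gave 22.1% to 22.4% in JAML-positive and 19.8% to 23.6% in JAML-negative libraries, and Zfp36l1 gave 15.6% to 16.2% and 13.6% to 15.9%. The shares of Zfp36 and Zfp36l1 overlapped between the groups and those of Zfp36l2 differed by under 3 percentage points. The summed level of the family was 1872 and 2251 CPM in JAML-positive replicates A and B, against 3032 and 2887 CPM in JAML-negative replicates A and B.

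**Figure D3:**
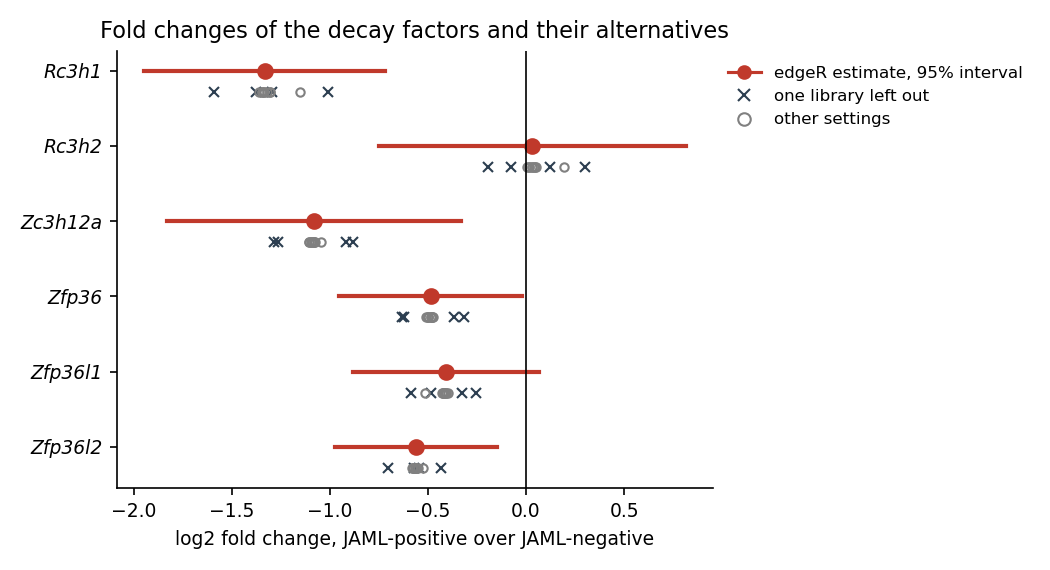
Log2 fold change of each decay factor, JAML-positive over JAML-negative, with the edgeR estimate and its 95% interval (filled circle and line), values with one library left out (crosses) and values under other settings (open circles). All alternatives for Rc3h1, Zc3h12a, Zfp36, Zfp36l1 and Zfp36l2 lie below 0, and those for Rc3h2 lie on both sides of it.

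Levels were compared between genes as CPM for each 1000 nt of the longest annotated transcript. The order was the same in every library, with Zfp36l2 first, then Zfp36, Zfp36l1, Zc3h12a, Rc3h1 and Rc3h2. On this scale Zfp36l2 spanned 329 to 393 in JAML-positive and 526 to 539 in JAML-negative libraries. Zfp36 spanned 150.4 to 179 in JAML-positive and 205 to 256 in JAML-negative libraries, and Zfp36l1 spanned 97.7 to 122 and 138 to 154. Zc3h12a spanned 16.0 to 20.5 and 33.9 to 43.9, Rc3h1 spanned 8.52 to 8.94 and 17.6 to 26.4, and Rc3h2 spanned 7.05 to 8.02 and 6.11 to 8.67. Within each group the ranges of neighbours in this order did not overlap, and the margin was narrowest between Rc3h1 and Rc3h2 in JAML-positive cells. With both groups pooled, the ranges of Zfp36 and Zfp36l1 overlapped, as did those of Zc3h12a and Rc3h1, and those of Rc3h1 and Rc3h2.

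Fold changes across the table depended on transcript length, which bears on the roquins with transcripts of 11006 nt (Rc3h1) and 8948 nt (Rc3h2). The median log2 fold change was 0.22 for 2385 tested genes with transcripts under 2000 nt, 0.05 for 4554 genes of 2000 to 4000 nt, -0.09 for 3569 genes of 4000 to 8000 nt and -0.21 for 605 longer genes. With the trends of length and GC content taken into the offsets, a setting chosen after the data were seen, Rc3h1 had a log2 fold change of -1.15 and Rc3h2 of 0.20. The other 4 transcripts have 2755 to 3530 nt, a class with a median of 0.05, and their values under that setting were -1.04 for Zc3h12a, -0.50 for Zfp36, -0.52 for Zfp36l1 and -0.52 for Zfp36l2.

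**Figure D4:**
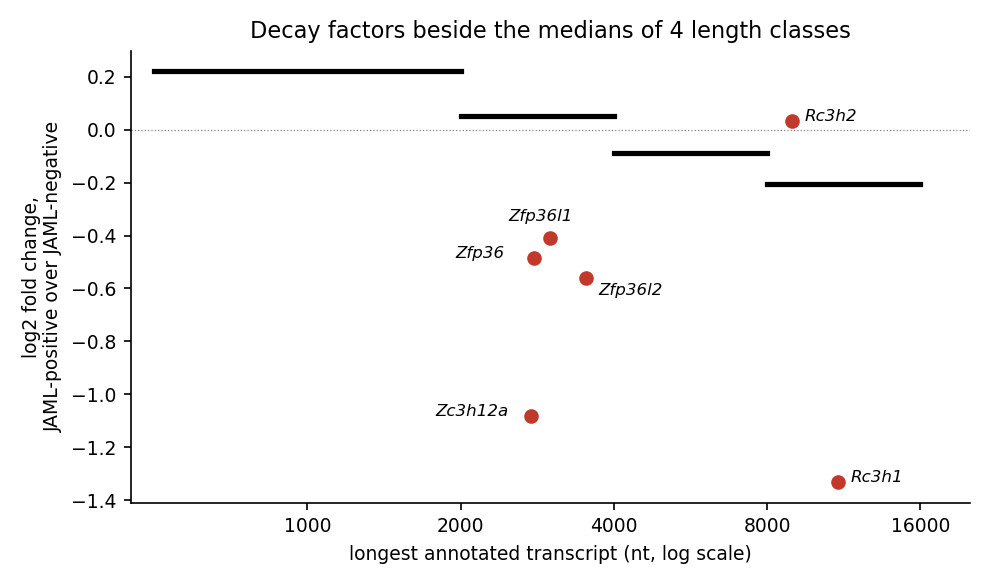
Log2 fold change of the 6 decay factors (points), JAML-positive over JAML-negative, against the length of the longest annotated transcript on a log scale, with the median of all tested genes in 4 length classes (bars; the outer bars have no outer border). The bars step down from 0.22 to -0.21, and 5 of the 6 points lie below the bar of their class.

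The machinery that these proteins recruit had values in both directions. Of 15 CCR4-NOT and associated genes, 8 had higher and 7 lower values in JAML-positive cells, with a median log2 fold change of 0.00. An unadjusted p under 0.05 was found for 2 higher (13.3%, against 4.32% of all genes) and 0 lower genes. Cnot2, a scaffold subunit, was at 135 and 136 CPM in JAML-positive and 71.0 and 83.0 CPM in JAML-negative libraries, with a log2 fold change of 0.82 (SE 0.29, edgeR adjusted p = 0.609). Cnot9, the subunit that contacts several recruiting proteins, was at 154 and 138 CPM in JAML-positive and 94.5 and 96.8 CPM in JAML-negative libraries. On the log2 scale this is 0.61 (SE 0.28, adjusted p = 0.609 by edgeR). For both, the groups did not overlap. Of the 15 genes, 3 lay apart and higher and 5 apart and lower, where 20.3% and 18.2% of all tested genes did.

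In the decapping and 5′ to 3′ decay list, 10 of 16 tested genes had higher and 6 lower values (median 0.32). Of these, 1 higher (6.25%, against 4.32% of all genes) and 1 lower (6.25%, against 3.34%) had an unadjusted p under 0.05. The log2 fold changes were 1.32 (SE 0.55) for Dcps, the scavenger decapping enzyme, and -0.83 (SE 0.36) for Dcp2, the catalytic decapping subunit. The RNA exosome, which degrades RNA from its 3′ end, had 7 of 13 higher and 6 lower (median 0.11), and 0 had an unadjusted p under 0.05. The smallest p there was that of Exosc4, at a log2 fold change of 1.62 (SE 0.78). Without JAML-negative replicate A, Dcps was at 0.79 and Exosc4 at 0.96, and without JAML-negative replicate B at 2.15 and 2.81. Argonaute, GW182, microRNA processing and poly(A) trimming genes had 3 of 13 higher and 10 lower (median -0.33). Tnrc6a, a GW182 protein that links Argonaute to CCR4-NOT, had a log2 fold change of -0.60 (SE 0.25). It was the 1 gene of that list with an unadjusted p under 0.05 (7.69%, against 3.34% of all genes lower). The edgeR adjusted p was 0.609 for each of Dcps, Dcp2, Exosc4 and Tnrc6a.

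Among 14 cofactors and regulators of the decay factors, 5 had higher and 9 lower values (median -0.14), and 2 lower genes had an unadjusted p under 0.05 (14.3%, against 3.34% of all genes). Upf1, the helicase that works with Regnase-1, was at 60.6 and 107 CPM in JAML-positive and 163 and 135 CPM in JAML-negative libraries (log2 fold change -0.81, SE 0.32, edgeR adjusted p = 0.609). Bcl10, the partner of MALT1, was at 75.0 and 93.9 CPM in JAML-positive and 120 and 153 CPM in JAML-negative libraries (log2 fold change -0.69, SE 0.30, edgeR adjusted p = 0.609). Of the 14 genes, 0 lay apart and higher and 4 apart and lower, where 20.3% and 18.2% of all tested genes did. Groups did not overlap for Upf1 or Bcl10, in each case with JAML-positive replicate A lowest. For Upf1 the log2 fold change was -0.47 without that library and -1.30 without JAML-positive replicate B. Of 13 tested binders that oppose decay or share AU-rich sites, 6 had higher and 7 lower values (median -0.03). Arid5a, which shields Regnase-1 targets in mouse cells, had 81.7 and 115 CPM in JAML-positive and 173 and 154 CPM in JAML-negative libraries. It was the 1 gene of that list with an unadjusted p under 0.05 (log2 fold change -0.73, SE 0.28, edgeR adjusted p = 0.609). That share, 7.69% of the binders, compares with 3.34% of all genes on the lower side. For 3 of the 13 binders both JAML-positive libraries were the lowest (18.2% of all genes), and for 1 they were the highest (20.3%).

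**Figure D5:**
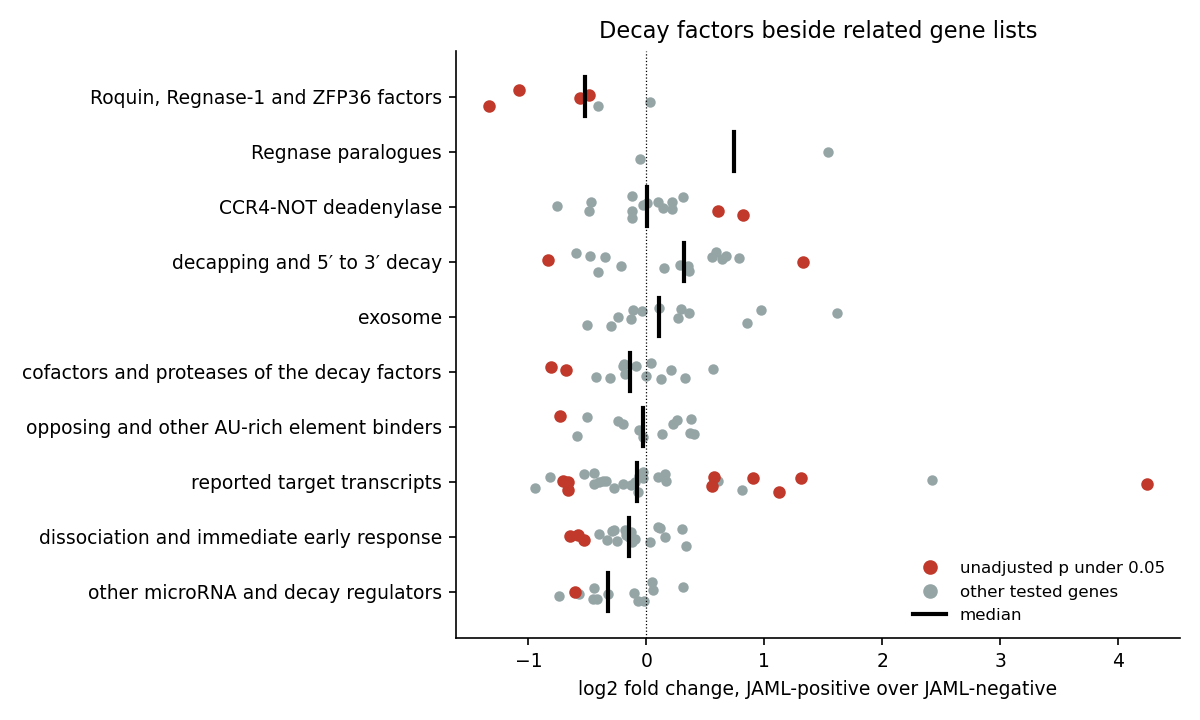
Log2 fold changes, JAML-positive over JAML-negative, of the tested genes of the decay factors and of 9 related lists (rows), with the median of each list as a bar and genes with an unadjusted p under 0.05 in red. The decay factors, with Rc3h1 among them, have a median of -0.52. The medians of the CCR4-NOT, decapping and exosome lists lie between 0.00 and 0.32, and that of the Regnase paralogues is 0.74. Below 0 lie other microRNA and decay regulators (-0.33), immediate early genes (-0.15), cofactors (-0.14), reported targets (-0.08) and other binders (-0.03).

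Transcripts reported as targets of these proteins also had values in both directions. Of 32 tested, 12 had higher and 20 lower values in JAML-positive cells, with a median log2 fold change of -0.08. Of these, 6 higher (18.8%, against 4.32% of all genes) and 3 lower (9.38%, against 3.34%) had an unadjusted p under 0.05, and 0 passed after adjustment (edgeR). The higher ones included Il2ra, the alpha chain of the interleukin-2 receptor, at 89.3 and 102 CPM in JAML-positive and 28.2 and 59.9 CPM in JAML-negative libraries, a log2 fold change of 1.13 (SE 0.40). Leaving out JAML-negative replicate A gave Il2ra 0.67, and leaving out replicate B of that group gave 1.77. The costimulatory receptor Tnfrsf9 had a value of 0.90 (SE 0.33), the inhibitory receptor Ctla4 of 0.56 (SE 0.23) and the transcription factor Batf of 1.31 (SE 0.56; 0.76 without JAML-positive replicate A). Id2, a regulator of CD8 T cell differentiation that was named after its value was seen, was at 427 and 283 CPM in JAML-positive and 207 and 268 CPM in JAML-negative libraries (0.58, SE 0.26). Ccnd1, which encodes cyclin D1, was near the limit of detection in JAML-negative cells, at 1.10 and 0.471 CPM, against 18.2 and 12.2 CPM in JAML-positive cells.

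The 3 lower ones were Bcl2, Notch1 and Myc. Bcl2, the survival factor, was at 212 and 256 CPM in JAML-positive and 374 and 390.0 CPM in JAML-negative libraries (log2 fold change -0.71, SE 0.22). Notch1, a receptor that steers T cell differentiation, was at 137 and 198 CPM in JAML-positive and 298 and 235 CPM in JAML-negative libraries (-0.67, SE 0.26), and Myc had a value of -0.67 (SE 0.29). Without JAML-positive replicate A these were -0.43 and -0.42, and Notch1 was at -0.37 with the length and GC trends in the offsets. All of these named targets had an edgeR adjusted p of 0.609. Bcl2 and Notch1 carry the heptamer in their 3′ UTRs, with 2 and 4 matches, and among the higher ones Id2 carries 2 and Ccnd1 carries 1. Il2ra, Tnfrsf9, Ctla4, Batf and Myc carry 0. For Bcl2, Notch1 and Ccnd1, 1 site each is printed to set beside those of the decay factors, with the heptamer in capitals. The Notch1 site is the only 1 of its 4 in the longer form. The Id2 sites are not printed and do not hold that form.
Bcl2, chr1:106542994-106543023, minus strand: aaaaaaagattTATTTATttaagacagttc
Notch1, chr2:26459161-26459190, minus strand: taaatgctgttTATTTATtgattgcttctt
Ccnd1, chr7:144931309-144931338, minus strand: ctacagaagagTATTTATgggaaaggctgc
The first 2 hold the longer form TTATTTATT and the third does not. Well-known targets without such p-values included Icos, at 174 and 193 CPM in JAML-positive and 156 and 174 CPM in JAML-negative libraries (log2 fold change 0.16, SE 0.25). Tnf, with 8 matches, was at 16.3 and 35.5 CPM in JAML-positive and 57.6 and 26.2 CPM in JAML-negative libraries (-0.67, SE 0.57), so its groups overlapped. Icos and Tnf were named after their values were seen.

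Across all genes, the number of heptamers went with transcript length, and length with fold change. The median log2 fold change was 0.05 for 7365 genes without a heptamer, -0.02 for 2078 genes with 1 and -0.10 for 1147 genes with 2 or more. Within transcripts of 2000 to 4000 nt the medians were 0.06, 0.07 and -0.07, and within those over 8000 nt -0.22, -0.17 and -0.16. Within transcripts under 2000 nt they were 0.23, 0.30 and 0.05, and within those of 4000 to 8000 nt -0.07, -0.14 and -0.09. The order with heptamer number was therefore not the same in every length class. Genes with 2 or more heptamers had a lower median than genes without one in every class but the longest. Whether heptamers play a part beyond length was not tested.

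Zfp36 belongs with the immediate early genes, which dissociation of a tissue can also induce. Of 21 genes of that kind, 15 had lower and 6 higher values in JAML-positive cells (median -0.15), where 49.3% of all tested genes were lower. An unadjusted p under 0.05 was found for 3 lower genes (14.3%, against 3.34% of all genes) and 0 higher, and 8 of the 21 lay apart and lower, as 18.2% of all genes did. Egr1 was at 133 and 135 CPM in JAML-positive and 213 and 207 CPM in JAML-negative libraries, Nr4a1 at 467 and 568 and at 717 and 833 CPM, and Fosb at 156 and 202 and at 272 and 246 CPM. Groups did not overlap for any of the 3. The list summed to 11328 and 11510.0 CPM in JAML-positive and 12149 and 12867 CPM in JAML-negative libraries. Whether handling plays a part in the Zfp36 values was not tested.

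The genes most like Rc3h1 in pattern were Tmem241, Sgsh and Lgalsl, by the distance between log2 CPM centred over the 4 libraries (0.18, 0.21 and 0.22). They were chosen from genes of at least 10 CPM that are neither members nor predicted genes. Sgsh was at 18.2 and 20.3 CPM in JAML-positive and 52.7 and 42.4 CPM in JAML-negative libraries. The distances to Rc3h1 were 0.74 for Zc3h12a, 0.85 for both Zfp36l2 and Zfp36, 1.04 for Zfp36l1 and 1.36 for Rc3h2. Set among those genes by nearness, Zc3h12a would rank 265th, Zfp36l2 473rd, Zfp36 490th, Zfp36l1 1135th and Rc3h2 2891st. Of the 5 other decay factors, the paralogue Rc3h2 was thus the farthest from Rc3h1.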

How the data were processed

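The authors deposited raw read counts per gene for the 4 libraries, with symbols and Entrez identifiers. Per the labels' protocols, a SMARTER mRNA-Seq kit was used on total RNA purified on columns. The submitters' processing notes name GRCm38 (mm10). The sources used here name no aligner, counter or annotation version. Genes were kept by filterByExpr (minimum count 10), scaled by TMM, and tested with edgeR 4.0.16 (R 4.3.3, robust quasi-likelihood test, no covariate), with Benjamini-Hochberg adjustment over all tested genes and a threshold of 0.05. SE is the absolute log2 fold change over the square root of F. DESeq2 1.42.0 and limma 3.58.1 served as alternatives. The edgeR fit was tested on simulated data with larger fold changes than any of the decay factors had. That test cannot say what the fit detects at their size. Genes were placed with RefSeq coordinates (GRCm38.p6), and lengths and 3′ UTRs came from GENCODE M21. Members and lists, written from general knowledge, were chosen with earlier results of these data known. Genes named from a list are those with an unadjusted p under 0.05 (at most 4, targets at most 8), or else the one with the smallest p, and from marker lists the 2 with the most counts. Other genes named were picked after their values were seen. No protein sequences were used here.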

Additional observations from a re-analysis of the deposited data

How the results depend on the processing

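The log2 fold changes of Rc3h1, Zc3h12a, Zfp36, Zfp36l1 and Zfp36l2 were below 0 in all 13 alternatives. In that order they spanned -1.59 to -1.01, -1.29 to -0.88, -0.63 to -0.32, -0.58 to -0.25 and -0.70 to -0.43. These signs could hardly turn, since both JAML-positive libraries lay below both JAML-negative ones for each gene. The other settings used the same 4 libraries. Of the factors other than Rc3h1, whose p was used to choose it, DESeq2 alone placed Zc3h12a (adjusted p = 0.00272) and Zfp36l2 (0.00359) past the threshold, and it left Zfp36 (0.0777) and Zfp36l1 (0.142) short of it. It called 885 genes, 536 higher (4.64%) and 349 lower (3.02%), and gave 2054 an unadjusted p under 0.05. Of the related lists, DESeq2 called 2 of 15 CCR4-NOT genes and 2 of 32 reported targets higher. It called 3 of 21 immediate early genes, 1 of 32 targets, 1 of 13 other binders and 1 of 13 other regulators lower. In the Regnase paralogue, decapping, exosome and cofactor lists it called 0. Without a filter 2 genes were called, and with a mean of at least 30 CPM 2, with 502 at an unadjusted p under 0.05. With a library left out, 0 to 11 genes were called (11 without JAML-positive replicate B) and 466 to 941 had an unadjusted p under 0.05 (466 without JAML-positive replicate A). Without either JAML-negative library the median over all genes was 0.13. JAML-positive replicate A was the lowest library for each of the 5 lower factors. Without it, their log2 fold changes were -1.30 (Rc3h1), -0.92 (Zc3h12a), -0.36 (Zfp36), -0.25 (Zfp36l1) and -0.43 (Zfp36l2). Without JAML-negative replicate A, Zfp36 had -0.32. Leaving out a library turned the sign of Rc3h2 (-0.19 to 0.30), Cd8a (-0.091 to 0.039), Ly6c2 (-0.54 to 0.37), Cd79b (-0.78 to 1.22) and Alb (-0.38 to 1.81), and the 30 CPM filter that of Ly6c2 (0.0060). The cause was not tested. Per transcript length, Rc3h1 made up 54.7% and 52.7% of the roquin pair in JAML-positive A and B and 75.3% and 74.2% in JAML-negative A and B, since Rc3h1 is the longer. The replicate block gave 620 genes an unadjusted p under 0.05, against 885 without it, and called 0. The letters do not pair the libraries by label, and A minus B differences in the groups correlated at 0.0176 across genes. With 2 libraries a group, the 95% interval of Rc3h2 spans -0.75 to 0.81.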
